A study of Mus musculus with 8 samples.

Results

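The genes described here are the Wnt ligands, their Frizzled receptors and Lrp co-receptors, the secreted Wnt inhibitors, and the genes that respond to Wnt signalling and feed back on it. They were chosen by name: 48 genes were listed, and each was matched to the non-control probes that carry its symbol or an older alias, Sfrp3 being the probe named Frzb. A gene counted as measured when 4 or more of the 8 arrays had 1 of its probes well above background. Of the 48 listed genes, 42 were measured, among 18498 genes tested in all. The 6 others were Wnt3a, Wnt7a, Wnt8a, Wnt8b, Wnt10b and Sfrp4. Their best probe was well above background on 0, 3, 1, 2, 1 and 1 arrays respectively, and no level or difference is given for them.

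The study compared dorsal pancreas of mouse embryos at e12.5, a stage when the dorsal bud is a branching epithelium, that lack Sox9, a transcription factor of pancreatic progenitors, with that of wild-type littermates. The 4 mutant samples had floxed Sox9 alleles and the Pdx1-Cre transgene (Sox9 fl/fl; Pdx1-Cre), and the 4 samples called wild-type had the same floxed alleles and no Cre (Sox9 fl/fl). The floxed line was on a mixed FVB/N and C57Bl/6J background and the Cre line on C57Bl/6J. Each sample was RNA from the dissected dorsal pancreata of 3 embryos, labelled from about 250 ng and hybridised to 1 single-colour Agilent array. Pdx1-Cre acts where Pdx1 is or was expressed, that is in pancreatic epithelium and not in mesenchyme. Cre was present in mutants only, so its presence and the loss of Sox9 cannot be told apart. The series text speaks of 3 biological replicates while 4 arrays per genotype are labelled, so n = 4 rests on the labels, and p-values measure only the spread between these samples.

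Wnt proteins are lipid-modified signals that bind a Frizzled receptor together with Lrp5 or Lrp6. In the canonical branch this stops the breakdown of beta-catenin, which then switches on target genes with TCF/LEF factors, and several targets, such as Axin2, Rnf43 and Znrf3, dampen the pathway again. Secreted Frizzled-related proteins and Wif1 bind Wnts outside the cell, and Dkk proteins block the Lrp co-receptors. In the embryonic pancreas, epithelium and the mesenchyme around it both make Wnt ligands and inhibitors, and beta-catenin signalling is known to be needed for expansion of the organ's acinar tissue.

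Levels are log2 signals relative to the 75th percentile of all signals on the same array, so that 0 is that percentile. Differences are mutant minus wild-type means on the log2 scale. They were tested with limma, and p-values were adjusted by the Benjamini-Hochberg method over all 18498 genes. A gene is said to rise or fall where the adjusted p is under 0.05. Probes differ in how well they bind, so an order of levels between genes is not read as a result; the mean level served only to choose a gene's probe and some of the members shown.

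The labels and the makeup of the samples were checked first. Sox9 fell by 2.70 (SE 0.52, limma adjusted p = 0.0253), from 2.29 ± 0.51 to -0.41 ± 1.08 (SD, n = 4 each), and no mutant array reached the lowest wild-type array. Its limma adjusted p was 0.0115 to 0.0731 when 1 array was left out. Between 59.4% and 77.7% of spots were well above background on an array. Of 10 epithelial markers 9 fell and none rose, and all 6 pancreatic epithelial markers fell, with median differences of -2.23 and -2.45. The summed signal of the pancreatic epithelial markers was 32.8 to 53.2 times the 75th percentile in wild-type arrays and 3.83 to 12.7 times in mutant arrays. Mesenchymal markers were well above background on every array, although the samples are labelled as epithelium. Of these 12 markers, 4 rose and none fell (median 0.69), and their summed signal was 239 to 317 times the percentile in wild-type and 365 to 482 times in mutant arrays. Of 8 mesothelial markers 2 rose, of 8 endothelial markers 2 rose, of 8 macrophage markers 4 rose, and of 6 liver markers 2 rose, with none falling in these lists. Of 5 measured neural crest and glial markers, 3 fell. Y-linked genes were low in wild-type replicates 1, 2 and 4 (mean levels -6.44, -5.19 and -6.58) and higher in wild-type replicate 3 (-1.13) and in the mutants (-1.87 to -0.17). The Y-linked level ran in part with genotype, so a fit that holds both separates them poorly. With this Y-linked level as a covariate, 2 of all genes and none of the Wnt genes passed the threshold. The differences were then -1.57 for Rnf43, 0.76 for Wnt9a and -1.41 for Wnt7b, beside -1.65, 0.68 and -1.77 without it, and the part of the Y-linked level in them was not tested.

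Across the 42 measured Wnt genes, 3 passed the threshold. The ligand Wnt7b and the feedback gene Rnf43 fell, and the ligand Wnt9a rose. This is 7.14% of the measured members, beside 5.37% of all genes tested, with 1.56% of all genes rising and 3.82% falling. No receptor, co-receptor or secreted inhibitor passed. The median difference of the 42 genes was 0.19, beside 0.016 for all genes, with 25 differences above 0 and 17 below. The wild-type and mutant values of 8 members (19.0%) did not overlap, beside 15.2% of all genes. An unadjusted p under 0.05 was reached by 14 members (33.3%), beside 18.8% of all genes. The count of members past the threshold was between 1 and 5 when 1 array was left out: 1 without wild-type replicate 1 or mutant replicate 1, 2 without wild-type replicate 4 or mutant replicate 2, and 5 without mutant replicate 3. None passed when wild-type replicate 1 and mutant replicate 3, the array of lowest weight in each genotype, were both left out.

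**Figure D1:**
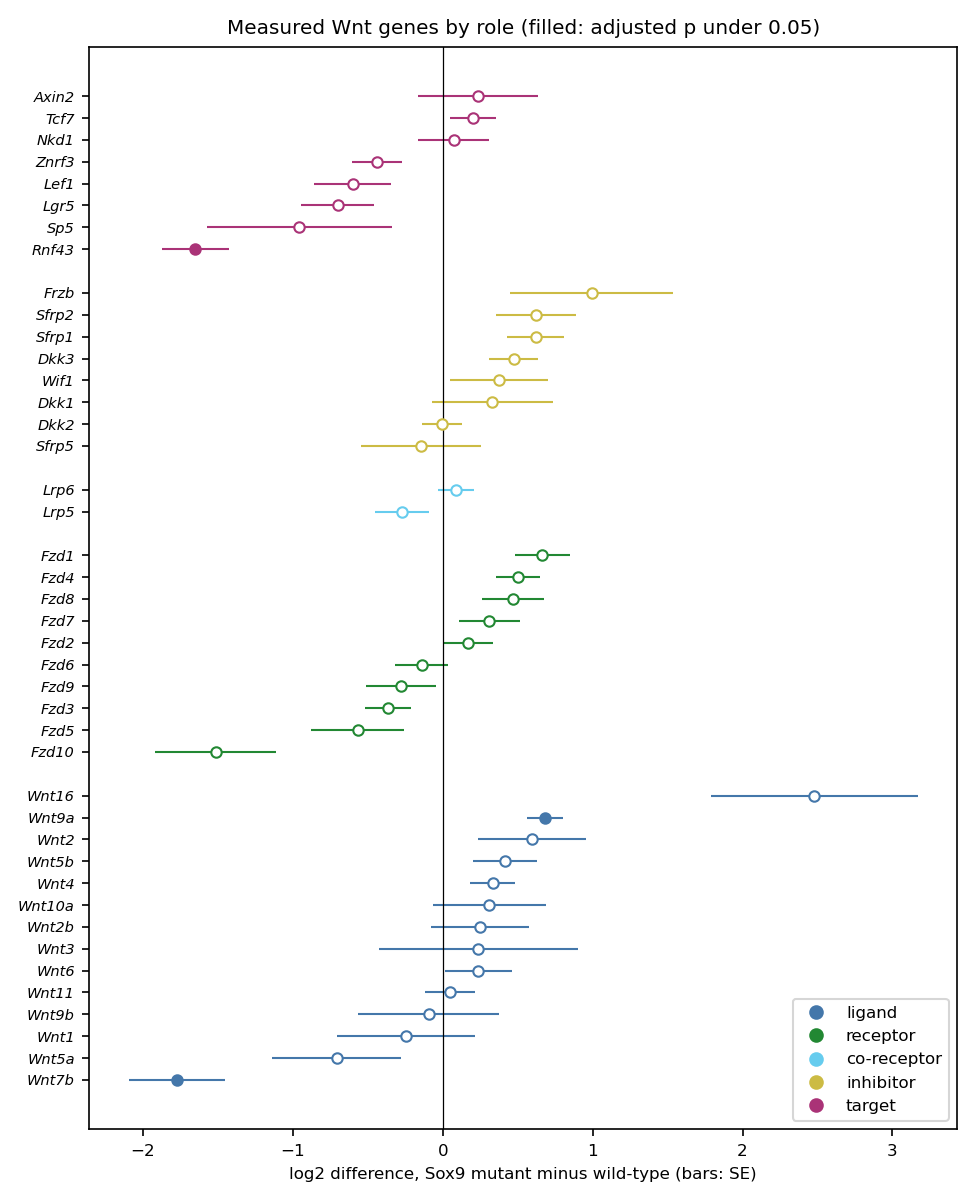
Log2 difference between Sox9 mutant and wild-type means for the 42 measured Wnt genes, grouped by role; points are limma estimates, bars are standard errors (n = 4 arrays per genotype), and filled points have an adjusted p under 0.05. The 3 filled points are Wnt7b at -1.77, Rnf43 at -1.65 and Wnt9a at 0.68, while Wnt16 at 2.48 is open; its probe was well above background on 1 of the 4 wild-type arrays, and its difference was 0.64 in the authors' deposited value table.

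The probes behind Rnf43 and Wnt9a are shown because each of these genes is read through 1 kept probe of 60 bases. A second probe of each was not kept, being well above background on 0 arrays for Rnf43 and 3 for Wnt9a. The first 30 bases of the kept probes are given as the array design lists them, 5′ to 3′, in lower case throughout. Per the file headers their positions are on mouse assembly mm8: Rnf43 at chr11:87551637-87551696 and Wnt9a at chr11:59149389-59149448, both on the plus strand. The probes were not placed in exons or untranslated regions here.
Rnf43: atgggtatttatatctgaaccagacagaaa
Wnt9a: aaacgtctgccggctggtttgtttctgtat

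Among the ligands, 14 of 19 were measured, 1 rose and 1 fell. Wnt7b, a ligand made by embryonic epithelia including that of the pancreas, had levels of 0.97, 0.15, 0.28 and 0.43 in wild-type and -1.40, -1.96, -1.45 and -0.46 in mutant arrays, here and later in the order of replicates 1 to 4. Every mutant array lay below every wild-type array, and mutant replicate 4 was the highest of the mutants. The means were 0.46 ± 0.36 and -1.32 ± 0.62 (SD, n = 4 each), a difference of -1.77 (SE 0.32, limma adjusted p = 0.0205), or 3.42-fold lower in the mutant. The exact permutation test gave p = 0.0286, the smallest that 4 against 4 arrays allow. The arrays lay on 3 slides that each held both genotypes. Within slides 1, 2 and 3 the Wnt7b differences were -1.60, -1.21 and -2.66, and a slide block gave -1.84 (limma adjusted p = 0.0336). Leaving out wild-type replicate 1 or 4 or mutant replicate 1 or 3 gave differences of -1.60, -1.78, -1.75 and -1.73 with limma adjusted p-values of 0.0541, 0.0617, 0.0644 and 0.0527. The limma adjusted p was 0.00473 to 0.223 over all alternatives.

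Epithelial markers moved in the same direction as Wnt7b. The mean log2 level of the 10 epithelial markers was 1.76 to 2.31 in wild-type arrays and -0.40, -0.19, 0.16 and 0.78 in mutant replicates 2, 3, 1 and 4, where replicate 4 was also the highest and replicate 2 the lowest. Fewer cells of a type and less RNA per cell cannot be told apart in such tissue samples, and the part of the epithelial share in the Wnt7b difference was not tested. Slide 2 held 1 wild-type array, replicate 3, with a Y-linked level of -1.13, and mutant replicates 1 and 4, with levels of -0.17 and -1.87. There Wnt7b differed by -1.21, Rnf43 by -1.36 and Wnt9a by 0.75, values that rest on that 1 wild-type array.

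Wnt9a, a ligand known from skeletal and heart development, was the member that rose. Its levels were -1.22, -1.02, -1.26 and -0.98 in wild-type and -0.37, -0.34, -0.40 and -0.65 in mutant arrays. The groups did not overlap, and both had an SD of 0.14. The means of -1.12 and -0.44 differed by 0.68 (SE 0.12, limma adjusted p = 0.0192; exact permutation p = 0.0286), or 1.60-fold. The difference was 0.62, 0.75 and 0.76 within slides 1, 2 and 3. A slide block gave 0.72 (limma adjusted p = 0.0254). Without wild-type replicate 1 or 3 or mutant replicate 1 or 2 the limma adjusted p was 0.051, 0.0577, 0.0677 and 0.0621, and it ranged from 0.0103 to 0.138 over all alternatives. Differences of the 12 mesenchymal markers ran from -0.09 to 0.96, with 1 of them below 0, and 8 did not pass. The 4 that rose did so by 0.67 to 0.91, beside 0.68 for Wnt9a. Medians were 0.69 over the 12 mesenchymal, 0.71 over the mesothelial, 0.50 over the endothelial and 0.65 over the macrophage markers. The liver markers had a median of 1.44 and the neural crest and glial markers of -0.99. The part of the share of any of these cell types in the Wnt9a difference was not tested.

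**Figure D2:**
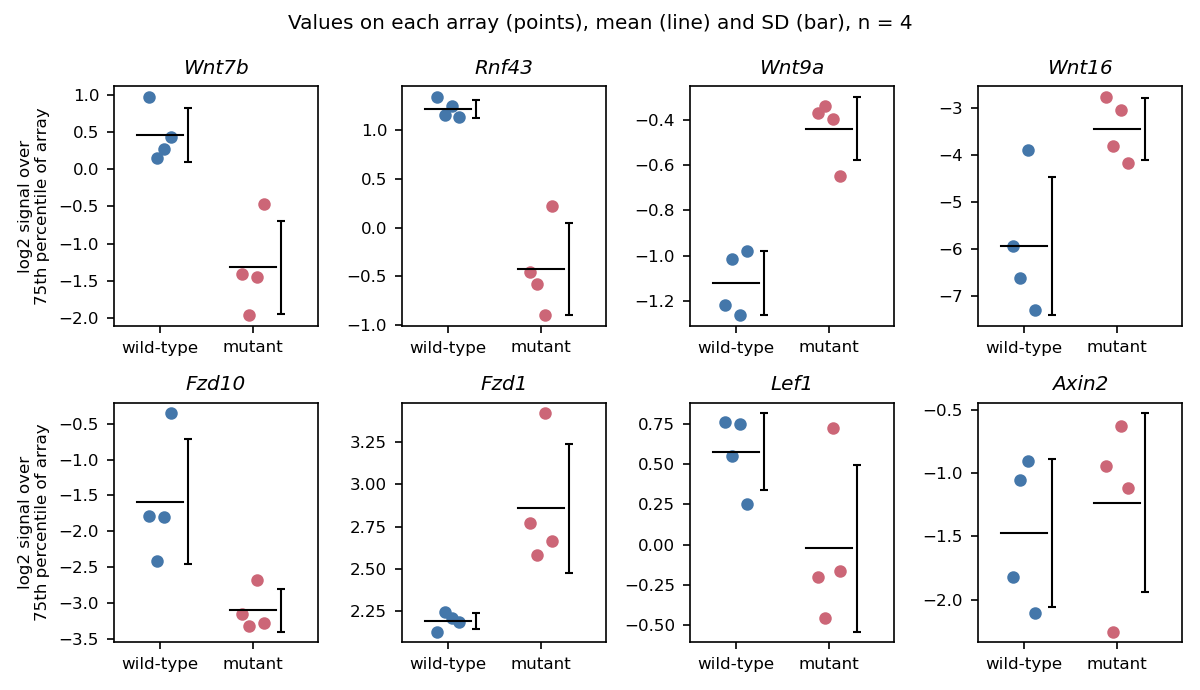
Log2 signal over the array's 75th percentile for 8 Wnt genes on each of the 4 wild-type (blue) and 4 Sox9 mutant (red) arrays, with the mean as a line and the SD as a bar; each panel has its own vertical axis. The groups do not overlap for Wnt7b, Rnf43, Wnt9a, Fzd10 and Fzd1, and they overlap for Wnt16, Lef1 and Axin2. Each gene is shown by its kept probe of highest mean signal.

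Wnt16 differed by 2.48 (SE 0.69) and did not pass (limma adjusted p = 0.0814; exact permutation p = 0.0571). Its levels were -5.93, -6.61, -3.91 and -7.29 in wild-type, where replicate 3 alone was well above background, and -2.78, -3.82, -3.04 and -4.17 in mutant arrays, all 4 well above background. Wild-type replicate 3 lay within the mutant range, and it was also the wild-type array of high Y-linked level. Within slide 2, where replicate 3 was the 1 wild-type array beside mutant replicates 1 and 4, the difference was 0.43, beside 3.56 and 2.79 within slides 1 and 3. With the Y-linked covariate it was 0.44 (limma adjusted p = 0.754), and the part of the Y-linked level in it was not tested. The size of this difference depended on how dim signals were treated: it was 0.64 in the authors' deposited value table (limma adjusted p = 0.0116) and 0.57 after normexp background correction (limma adjusted p = 0.211).

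Wnt5a, the main ligand of the branch that does not use beta-catenin, was -2.57, -2.60, -2.23 and -2.28 in wild-type arrays and -2.66, -2.49, -4.57 and -2.78 in mutant arrays. Mutant replicate 3 alone was far lower, its probe was not well above background there, and the difference of -0.71 did not pass (limma adjusted p = 0.462). The related ligand Wnt5b was 0.86, 1.10, 0.93 and 1.25 in wild-type and 1.67, 1.82, 0.85 and 1.47 in mutant arrays. Mutant replicate 3 was the lowest of all 8 arrays and the other 3 mutants were the highest, with a difference of 0.42 (limma adjusted p = 0.364). Wnt11, which like Wnt5a acts mostly outside the beta-catenin branch, was -1.37, -1.57, -1.44 and -1.16 in wild-type and -1.45, -1.08, -1.69 and -1.11 in mutant arrays. The Wnt11 groups overlapped throughout, with a difference of 0.05 (SE 0.17).

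Wnt4, a ligand of kidney and gonad development, was -1.63 ± 0.25 in wild-type and -1.30 ± 0.16 in mutant arrays (SD, n = 4 each). Its groups only just did not overlap, the highest wild-type array being at -1.424 and the lowest mutant array at -1.422. The difference of 0.33 did not pass (limma adjusted p = 0.290). The difference for Wnt2, a ligand of mesenchyme and vessels, was 0.59 (SE 0.36). None of the remaining ligands passed: differences were 0.31 (SE 0.38) for Wnt10a, 0.25 (SE 0.33) for Wnt2b, 0.24 (SE 0.66) for Wnt3, 0.24 (SE 0.22) for Wnt6, -0.09 (SE 0.47) for Wnt9b and -0.25 (SE 0.46) for Wnt1. A second Wnt6 probe gave 0.67 (limma adjusted p = 0.229 over all kept probes). Of the 14 ligands, 10 had a difference above 0, and the median was 0.24.

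All 10 Frizzled receptors were measured and none passed, the lowest limma adjusted p being 0.0713. The differences split evenly, 5 above and 5 below 0, with a median of 0.016. The values of 3 receptors, Fzd1, Fzd4 and Fzd10, did not overlap between genotypes.

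Fzd10 differed by -1.52 (SE 0.40, limma adjusted p = 0.0713; exact permutation p = 0.0286). It was -1.78, -2.41, -1.81 and -0.36 in wild-type and -3.15, -3.31, -2.68 and -3.27 in mutant arrays. Wild-type replicate 4 was the highest by more than the mutants differed among themselves, and the difference without it was -1.10. Within slides 1, 2 and 3 the values were -0.27, -1.41 and -2.24. A second Fzd10 probe gave -0.90 (limma adjusted p = 0.238 over all kept probes). On that probe the groups overlapped, with wild-type replicate 2 at -3.87 and mutant replicates 1 and 2 at -3.71 and -3.67.

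Fzd1 was 2.13, 2.25, 2.21 and 2.19 in wild-type and 2.77, 2.58, 3.42 and 2.67 in mutant arrays. The wild-type values lay close together, all mutants lay above them, and mutant replicate 3 was the highest. The difference of 0.67 (SE 0.18) did not pass (limma adjusted p = 0.0816); it was 0.48 without mutant replicate 3, where the limma adjusted p was 0.0462. Fzd4, the receptor for norrin in vessels as well as for Wnts, was 0.99 ± 0.17 in wild-type and 1.49 ± 0.22 in mutant arrays, with a difference of 0.50 (limma adjusted p = 0.0941). Differences were 0.47 for Fzd8, 0.31 for Fzd7, -0.14 for Fzd6, -0.28 for Fzd9 and -0.37 for Fzd3, a receptor known from axon guidance and planar polarity, and none of these passed.

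Fzd2 is the receptor whose answer depended on the probe. The probe used for it, of the higher signal, was 3.56, 3.05, 2.90 and 3.15 in wild-type and 3.15, 3.39, 3.54 and 3.25 in mutant arrays, groups that overlap, with a difference of 0.17 (SE 0.16, limma adjusted p = 0.709). The other Fzd2 probe was -0.51, -0.74, -1.0 and -0.71 in wild-type and -2.27, -2.53, -1.88 and -2.35 in mutant arrays. All 4 mutants lay below all wild-type arrays there, with a difference of -1.52 and a limma adjusted p of 0.010 over all kept probes. With the mean of both probes Fzd2 differed by -0.67 (limma adjusted p = 0.0487), so its direction is not settled by these arrays. The first 30 bases of both are given because the probes answer differently. The probe used lies at chr11:102422389-102422448 and was designed on the RefSeq transcript. The other lies downstream at chr11:102423821-102423880, designed on a complementary DNA clone from embryonic head, both on the plus strand of mm8.
Fzd2, probe used: tcacagtctacatgatcaaatacctcatga
Fzd2, other probe: cgtgacattctatatcataagatattgata

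**Figure D3:**
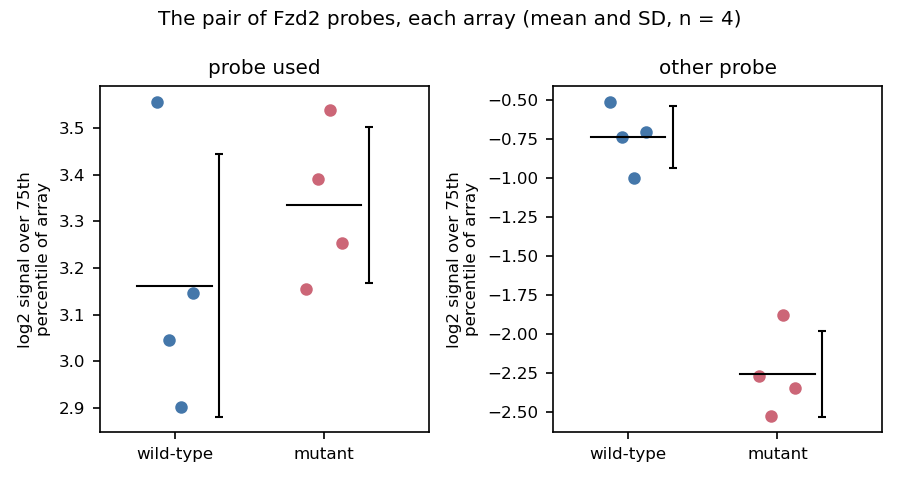
Log2 signal over the array's 75th percentile for the 2 Fzd2 probes on each array, with mean and SD (n = 4 per genotype) and a separate vertical axis for each probe. Wild-type and mutant arrays overlap for the probe used (difference 0.17) and lie apart for the other (difference -1.52).

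Fzd5, a receptor of early endoderm, also had probes of opposite sign, -0.57 for the one used and 0.22 for the other, and neither passed. Of the 11 members with more than 1 kept probe, Fzd2 and Fzd5 were the 2 whose probes differed in sign.

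Both co-receptors were measured and neither passed. Lrp5 was 1.76, 1.0, 1.30 and 1.08 in wild-type and 0.93, 0.96, 1.25 and 0.91 in mutant arrays, with mutant replicate 3 well above the other mutants and a difference of -0.27 (limma adjusted p = 0.521). Lrp6 was -2.40, -2.35, -2.10 and -2.54 in wild-type and -2.33, -2.23, -2.28 and -2.20 in mutant arrays, within the wild-type range throughout. Its difference was 0.09 (SE 0.12).

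Of the 9 secreted inhibitors 8 were measured and none passed, the lowest limma adjusted p being 0.105. The differences were above 0 for 6 and below 0 for 2, with a median of 0.42. Sfrp1, which binds Wnts and is known from mesenchyme, was 4.79, 5.30, 5.12 and 5.24 in wild-type and 5.97, 5.81, 5.26 and 5.88 in mutant arrays. Mutant replicate 3 lay within the wild-type range and the other mutants above it, with a difference of 0.62 (SE 0.19, limma adjusted p = 0.105). Without mutant replicate 3 the difference was 0.78 and the limma adjusted p was 0.0403. A second Sfrp1 probe also gave 0.62 (limma adjusted p = 0.0877 over all kept probes). On that probe every mutant array, replicate 3 included, lay above every wild-type array.

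Sfrp2 was 1.58, 1.65, 0.74 and 1.62 in wild-type and 1.76, 2.19, 2.50 and 1.63 in mutant arrays. Wild-type replicate 3 was far below the rest, and mutant replicate 4 lay level with the other wild-type arrays. The difference was 0.62 (limma adjusted p = 0.259), and 0.79 with slide as a block, where it passed (limma adjusted p = 0.0184). It was 0.32 with array weights (limma adjusted p = 0.392) and 0.40 without wild-type replicate 3 (limma adjusted p = 0.412). Frzb, the third secreted Frizzled-related protein, was -4.29, -2.68, -2.92 and -2.94 in wild-type and -1.10, -2.85, -3.28 and -1.63 in mutant arrays. Mutant replicates 1 and 4 were high and the other mutants overlapped the wild-type arrays, so that the difference of 0.99 had an SE of 0.54.

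Among the Dkk proteins, Dkk3, whose action on Wnt signalling is less clear than that of its relatives, differed by 0.47 (SE 0.16, limma adjusted p = 0.154). Dkk1, which blocks Lrp5 and Lrp6, differed by 0.33 (SE 0.40). Dkk2 was -0.82 ± 0.19 in wild-type and -0.82 ± 0.15 in mutant arrays (SD, n = 4 each). Wif1, which binds Wnts directly, differed by 0.37 (SE 0.33) and was well above background on 2 of the 4 wild-type arrays and all 4 mutant arrays. Sfrp5, a gene of foregut endoderm, differed by -0.15 (SE 0.40). Of the 8 measured inhibitors, 6 lay above 0 and 2 below, and none passed the threshold. Above 0 were 11 of 12 mesenchymal markers, whose median was 0.69. All 8 mesothelial, all 8 endothelial and all 8 macrophage markers also lay above 0, with medians of 0.71, 0.50 and 0.65. So did 5 of 6 liver markers, while the 5 measured neural crest and glial markers lay below 0. The part of the share of each of these cell types in the inhibitor differences was not tested.

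**Figure D4:**
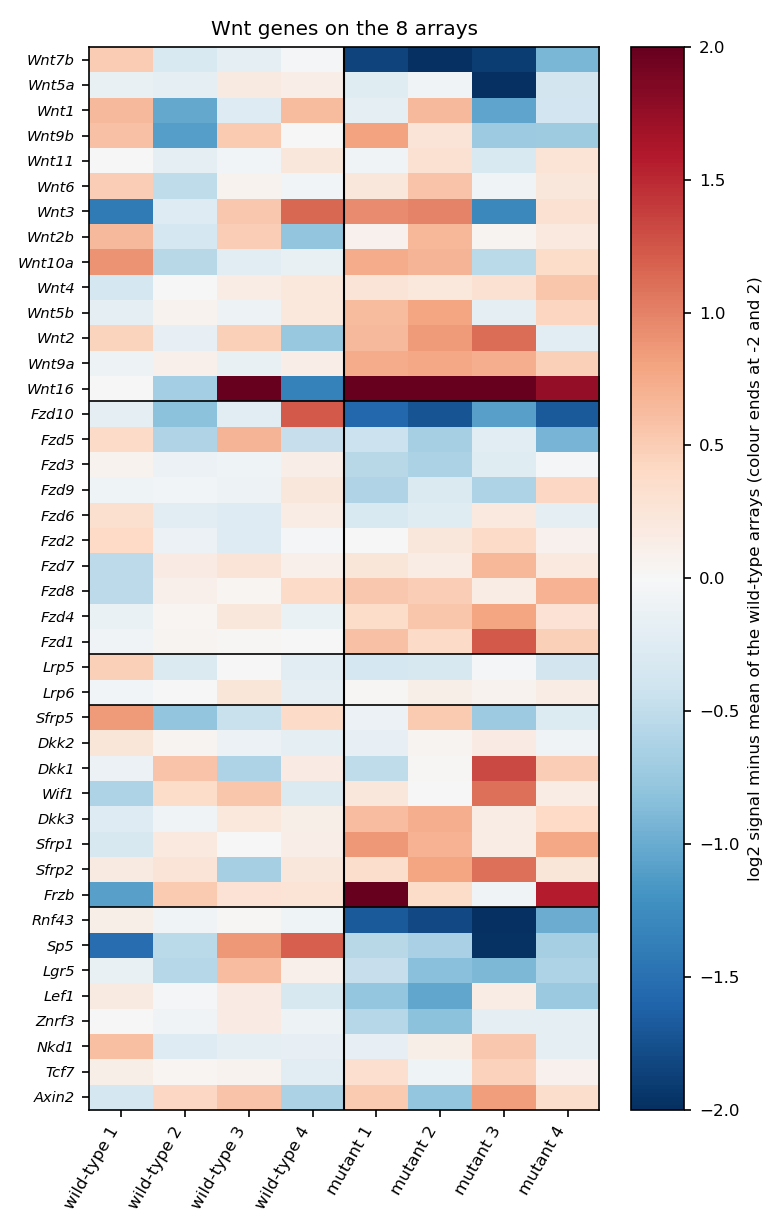
Log2 signal of the 42 measured Wnt genes on each array minus the mean of the 4 wild-type arrays, by role and sorted by difference within a role; red is higher, blue is lower, and the colour scale ends at -2 and 2. Wnt7b and Rnf43 are lower on all 4 mutant arrays, Wnt9a is higher on all 4, and single arrays stand out, such as mutant replicate 3 for Wnt5a (-4.57 as a level) and Sp5 (-6.48).

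All 8 targets and feedback genes were measured, 1 fell and none rose, with a median difference of -0.52. Rnf43, a membrane ubiquitin ligase that removes Frizzled receptors from the cell surface, was 1.34, 1.16, 1.25 and 1.13 in wild-type and -0.45, -0.58, -0.90 and 0.22 in mutant arrays. The groups lay far apart, and mutant replicate 4 was again the highest mutant, as for Wnt7b, the epithelial markers and Sox9 itself (0.77). The lowest mutant was replicate 3 for Rnf43 and replicate 2 for Wnt7b, the epithelial markers and Sox9. The means were 1.22 ± 0.10 and -0.43 ± 0.47 (SD, n = 4 each), a difference of -1.65 (SE 0.22, limma adjusted p = 0.00905; exact permutation p = 0.0286), or 3.14-fold lower in the mutant. Within slides 1, 2 and 3 it was -2.06, -1.36 and -1.82. A slide block gave -1.72 (limma adjusted p = 0.0145). Rnf43 passed in each of the 8 leave-one-out fits and in 19 of the 21 alternatives. The exceptions were the Y-linked covariate (-1.57, limma adjusted p = 0.123) and the omission of wild-type replicate 1 and mutant replicate 3 together (-1.45, limma adjusted p = 0.0591). As for Wnt7b, the part of the lower epithelial markers in this difference was not tested.

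Znrf3, the close relative of Rnf43 with the same action on Frizzled receptors, was -1.66 ± 0.11 in wild-type and -2.10 ± 0.31 in mutant arrays. Its groups did not overlap either, but the difference of -0.44 (SE 0.17) did not pass (limma adjusted p = 0.189). Axin2, the scaffold protein most often used as a readout of canonical signalling, was -1.82, -1.05, -0.90 and -2.10 in wild-type and -0.94, -2.25, -0.63 and -1.12 in mutant arrays. Both genotypes spread over more than 1 log2 unit and overlapped, so the difference of 0.23 had an SE of 0.40 (limma adjusted p = 0.867). Axin2 was among 14 of the 39 members not past the threshold whose difference changed sign under some alternative.

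Lef1, a TCF/LEF factor that is itself a target, was 0.76, 0.55, 0.75 and 0.25 in wild-type and -0.20, -0.46, 0.72 and -0.16 in mutant arrays. Mutant replicate 3 lay at the level of the wild-type arrays and the other 3 mutants below them. The difference was -0.60 (SE 0.26, limma adjusted p = 0.255), and -0.85 without mutant replicate 3 (limma adjusted p = 0.0397). A second Lef1 probe gave -0.70 (limma adjusted p = 0.0942 over all kept probes). On that probe every mutant array, replicate 3 included, lay below every wild-type array. Tcf7, another factor of that family, differed by 0.20 (SE 0.15).

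Nkd1, an inhibitor of Dishevelled, was 2.81, 1.95, 2.03 and 2.05 in wild-type and 2.04, 2.33, 2.74 and 2.02 in mutant arrays, 1 high array in each genotype and a difference of 0.07. Lgr5, an R-spondin receptor known as a stem cell marker, was -3.65, -4.08, -2.90 and -3.41 in wild-type and -3.96, -4.35, -4.40 and -4.12 in mutant arrays. Only wild-type replicate 2 reached the mutant range, and the difference of -0.70 (SE 0.24) did not pass (limma adjusted p = 0.155). It did pass with slide as a block (-0.80, limma adjusted p = 0.0446) and with quantile normalization (-0.55, limma adjusted p = 0.0483). It was -0.28 both in the authors' deposited value table (limma adjusted p = 0.0877) and after normexp background correction (limma adjusted p = 0.359). Sp5, a repressor induced by Wnt signalling, was -6.03, -5.05, -3.64 and -3.32 in wild-type and -5.06, -5.16, -6.48 and -5.18 in mutant arrays. It was well above background on 2 arrays of each genotype, and its difference of -0.96 had an SE of 0.62.

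Promoters were searched for the core motif of TCF/LEF factors, CTTTGA, and of Sox factors, AACAAT, on both strands of windows from 250 bases before to 50 after each RefSeq start (GRCm38.p6). Matches to each motif were counted separately, even where they share letters. CTTTGA was found for 7 of 33 members with a window, namely Dkk1, Frzb, Fzd1, Lef1, Sp5, Wnt11 and Wnt5b (21.2%), beside 18.2% of all genes with a window. AACAAT was found for Fzd10 and Rnf43, 2 of the 33 (6.06%), beside 12.2% of all genes with a window. Of the 3 members past the threshold, Wnt7b had no window, and neither Rnf43 nor Wnt9a had a CTTTGA match. The Rnf43 match is shown because it is the gene with the lowest p-value. It lies at the second of 2 listed starts, in a stretch from 80 bases before to 20 after the start, chr11:87699817-87699916 on the plus strand of GRCm38.p6. The capitals mark the match, which reads AACAAT on the other strand and begins 3 bases before the start. A match is a run of letters and not a measured binding site.
Rnf43, second start: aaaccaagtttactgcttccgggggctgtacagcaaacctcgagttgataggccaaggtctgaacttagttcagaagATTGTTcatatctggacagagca

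Further genes of the pathway were taken from a list of 54, of which 52 were measured. Of these, 4 passed the threshold (7.69%, beside 5.37% of all genes), 3 falling and 1 rising, with a median of 0.11. Notum, an enzyme that inactivates Wnts by removing their lipid, was -2.17, -2.67, -1.72 and -2.40 in wild-type and -3.43, -4.47, -3.83 and -3.87 in mutant arrays. The groups did not overlap, and Notum fell by 1.66 (SE 0.26, limma adjusted p = 0.0132), or 3.16-fold. It passed in each of the 8 leave-one-out fits, and differed by -1.16, -1.93 and -2.18 within slides 1, 2 and 3. In the authors' deposited value table the difference was -0.87 (limma adjusted p = 0.00385), nearer to 0.

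Kremen1, a receptor for Dkk proteins, fell by 0.78 (SE 0.14, limma adjusted p = 0.0199), from -1.74 ± 0.23 to -2.52 ± 0.12. Celsr2, a cadherin of planar polarity, fell by 0.94 (SE 0.22, limma adjusted p = 0.0478), from -0.94 ± 0.37 to -1.88 ± 0.29. The Celsr2 call was lost with slide as a block (-0.94, limma adjusted p = 0.0762) and with quantile normalization (-0.89, limma adjusted p = 0.0575). Without wild-type replicate 3 or 4 or mutant replicate 2, Kremen1 had a limma adjusted p of 0.0562, 0.0662 and 0.0624, and Celsr2 passed in 2 of the 8 leave-one-out fits, those without wild-type replicate 2 or mutant replicate 4. Within slides 1, 2 and 3, Kremen1 differed by -0.69, -0.97 and -0.75 and Celsr2 by -0.39, -0.85 and -1.44. With the mean of their kept probes, neither Kremen1 (-0.61, limma adjusted p = 0.0856) nor Celsr2 (-0.59, limma adjusted p = 0.139) passed.

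Rspo1, a secreted protein that strengthens Wnt signalling through Lgr receptors, was 2.03, 2.13, 2.14 and 2.34 in wild-type and 2.88, 3.10, 3.26 and 2.61 in mutant arrays. All mutants lay above all wild-type arrays. Rspo1 rose by 0.80 (SE 0.16, limma adjusted p = 0.0268), or 1.74-fold, and passed in 2 of the 8 leave-one-out fits, those without mutant replicate 3 or 4. Within slides 1, 2 and 3 it differed by 1.13, 0.61 and 0.91. Of its partners, the receptor Lgr4 differed by -0.21 (SE 0.19) and the related ligand Rspo3 by 0.47 (SE 0.52). Rspo2, a further ligand of that family that was named after its values were seen, differed by 0.82 (SE 0.33, limma adjusted p = 0.216), and by 0.97 with slide as a block (limma adjusted p = 0.0145).

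The intracellular core of the pathway did not pass. Ctnnb1, which encodes beta-catenin, was 4.02 ± 0.11 in wild-type and 4.19 ± 0.28 in mutant arrays, a difference of 0.17 (limma adjusted p = 0.680). Tcf7l1, a TCF factor that acts mostly as a repressor, differed by 0.27 (SE 0.10, limma adjusted p = 0.170), with no overlap between the groups. Tcf7l2, a further TCF factor, differed by -0.23 (SE 0.16). None of the 12 genes of the destruction complex and signal relay and none of the 12 nuclear genes passed, with medians of 0.04 and 0.10.

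The Wnt genes and pathway genes that fell did so by less than most epithelial markers. Wnt7b, Rnf43 and Notum differed by -1.77, -1.65 and -1.66, beside a median of -2.23 over the 10 epithelial and -2.45 over the 6 pancreatic epithelial markers. Kremen1 and Celsr2 differed by -0.78 and -0.94. The 5 measured neural crest and glial markers, of which 3 fell, had a median of -0.99, from -2.36 to -0.11. The difference between these genes and the markers was not tested.

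**Figure D5:**
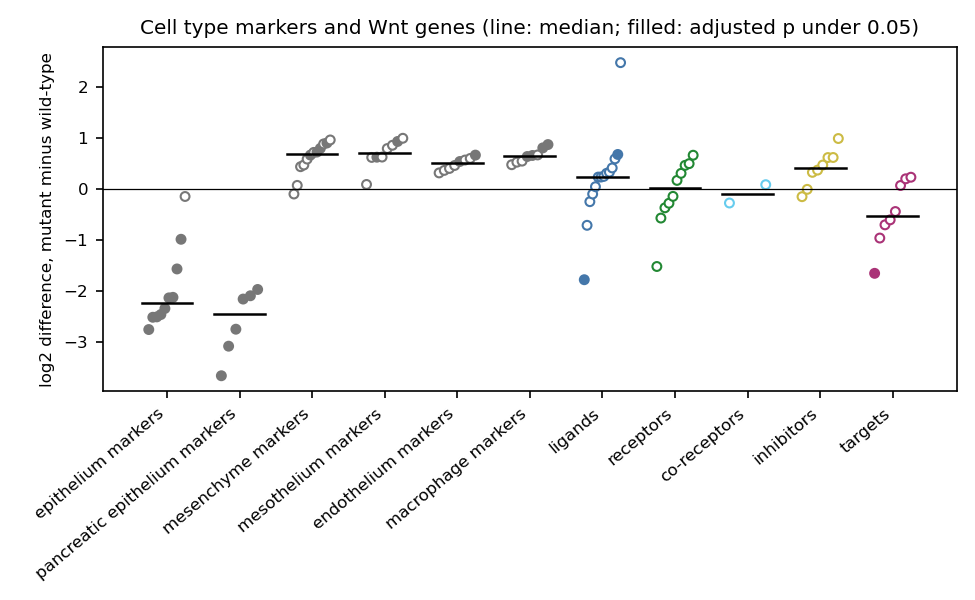
Log2 differences, mutant minus wild-type, of the markers of 6 cell types (grey) and of the measured Wnt genes by role (coloured); each point is 1 gene, lines are medians and filled points have an adjusted p under 0.05. The neural crest, glial and liver markers are not shown. The epithelial and pancreatic epithelial markers have medians of -2.23 and -2.45 and the mesenchymal markers 0.69, while the Wnt roles have medians between -0.52 for targets and 0.42 for inhibitors.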

How the data were processed

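All 8 arrays were analysed, 4 per genotype. Spots were read with Agilent Feature Extraction 9.5.3.1, per the file headers. Its deposited processed signal is a linear intensity, background-corrected within an array and not normalized between arrays. Mean signal and local background, as deposited, are uncorrected intensity values, and the deposited flags, of another kind than a measurement, mark control spots, outliers and spots well above background. The authors' value table holds intensity values with a median of 227 in every array; its 33067 features were matched by spot order (rank correlation at least 0.999 with the mean signal for all arrays). The submitters' processing notes name limma without a version, and the background method of that table is not given in the sources used here; its values are linear and not centred. No column of per-sample values was set aside.

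Log2 of the processed signal minus the 75th percentile of each array was used. Control spots (1639 of 45018) and flagged outlier spots were left out, spots of a probe were averaged, and probes well above background on at least 4 arrays were kept (27389 of 41174). The kept probe of highest mean signal stood for a gene. Genotypes were compared with limma 3.58.1 (lmFit, eBayes, R 4.3.3, with the data.table package of version 1.17.8), two-sided, with Benjamini-Hochberg adjustment over 18498 genes, after tests of the code on simulated data; single genes also with an exact permutation test over 70 assignments. Python 3.11.15, pandas 2.3.3 and matplotlib 3.10.9 made tables and figures.

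Members and lists were chosen with earlier results of these data known. Array values are given for members past the threshold and, per role, for the 2 others of highest mean level and the 2 of largest difference, and for Axin2, which was added after its values were seen; of the pathway list, genes past the threshold and Ctnnb1, Tcf7l1, Tcf7l2, Lgr4 and Rspo3 are named, with Rspo2 added after its values were seen. Samples of the same replicate number correlated at -0.35, -0.30, -0.01 and 0.09 in their deviations from the genotype means, so numbers were not used as pairs. The number of arrays limits the precision. Alternatives covered scaling, background, the deposited table, filters, probe choice, slide, replicate number, array weights, a Y-linked covariate and left-out arrays. The sequence of 1 probe is not reported here.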

Additional observations from a re-analysis of the deposited data

Results flagged for a closer look

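In 7 of 102 groups of 4 arrays (6.86%), 1 array stood far from the other 3, judged by its gap over the group's range; chance gives about 1 in 20 groups. Mutant replicate 3 gave 3 of them. For Wnt5a it was at -4.57, against -2.78 to -2.49 on the other mutant arrays, and it was not well above background. For Sp5 it was at -6.48, against -5.18 to -5.06, and was not well above background either. For Lrp5 it was at 1.25, against 0.91 to 0.96. Wild-type replicate 1 gave 2, Frzb at -4.29 against -2.94 to -2.68 and Nkd1 at 2.81 against 1.95 to 2.05. Wild-type replicate 3 was low for Sfrp2, at 0.74 against 1.58 to 1.65. Wild-type replicate 4 was high for Fzd9, at -2.37 against -2.71 to -2.65. Mutant replicate 3 and wild-type replicate 1 also had the lowest weights of their genotypes, 0.32 and 0.41. None of these genes passed the threshold.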

How the results depend on the processing

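The main fit gave 3 Wnt genes, 4 other pathway genes and 994 genes in all. Under the alternatives these counts were, in that order, 5, 3 and 949 with quantile normalization; 5, 6 and 1313 with the authors' deposited value table; 1, 1 and 419 without a filter on dim probes; 4, 2 and 909 for the mean of the kept probes. With slide as a block they were 5, 4 and 1292, and 4, 4 and 1532 as a random block. Array weights gave 8, 7 and 1697. The Y-linked covariate gave 0, 0 and 2, and leaving out wild-type replicate 1 and mutant replicate 3 together, an alternative chosen after seeing the data, gave 0, 0 and 64. Leaving out 1 array gave 1 to 5 Wnt genes, 1 to 4 pathway genes and 395 to 976 genes. The share of calls that were higher in the mutant was 29.0% in the main fit, 42.5% in the authors' table, 39.8% with probes above background on all 8 arrays and 10.0% with no filter. The median of the Wnt genes stayed between 0.07 and 0.21. Among differences past the threshold in some fit, Fzd2 alone changed direction, from 0.17 to -0.67 (limma adjusted p = 0.0487) with the mean of its kept probes; 14 of the 39 members not past the threshold changed sign in some alternative. The cause of these shifts was not tested.

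Replicate numbers did not pair the samples. With the replicate block, 2 Wnt genes (Wnt7b and Rnf43), 1 other pathway gene and 340 genes passed, and no wild-type array correlated best with the mutant of its own number. Each alternative gave values, but the filter on all 8 arrays tested 31 of the 42 members. Signals near background, as for Wnt16, Sp5 and Wif1, limit what these arrays can show.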
